A study of Rattus norvegicus with 64 samples.

Results

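The set described here holds 94 liver transcripts of the rat whose level at 10 h after bromobenzene was above that of vehicle livers. At 5 h their mean level was lower than with vehicle, or higher by less than 0.2 on the log2 scale. The members were selected on measured values, on the scale log2(TPM + 0.5), where TPM is the deposited abundance measure, which corrects for transcript length and is scaled to the same total in every library. A member had a mean of at least 2 TPM over the 32 liver libraries, a mean difference between bromobenzene and vehicle of at least 0.8 at 10 h, and a difference below 0.2 at 5 h. It was also higher with bromobenzene in at least 58 of the 64 pairs that can be formed at 10 h from 8 bromobenzene and 8 vehicle libraries. The deposited tables list 31715 transcripts, of which 11866 reached the minimum mean level in liver and are called the expressed transcripts. Another 70 transcripts met the 10 h conditions but had a difference of 0.2 or more at 5 h, and 31 failed only on the minimum level.

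Sprague Dawley rats were dosed once with bromobenzene at 0.4 g/kg or with the saline vehicle, and liver and kidney were taken at 5 h or 10 h. The series description counts 32 rats, and every group, defined by organ, hour and agent, holds 8 libraries (64 over the study). Poly-A-selected RNA was sequenced and quantified per transcript, with 13789055 to 28308155 estimated counts per liver library and 16981846 to 24118479 per kidney library. Sex, age, feeding state and hour of the day are not in the labels, and the extraction text speaks of cultured cells although every tissue label is liver or kidney. Because these are whole tissue samples, a change in the share of a cell type and a change in RNA per cell cannot be told apart.

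Bromobenzene is a classical model hepatotoxicant. Cytochrome P450 enzymes of the liver oxidise it to reactive epoxides and quinones, which are conjugated to glutathione and, once glutathione runs low, bind to protein. The kidney receives glutathione conjugates of the bromobenzene metabolites through the blood and is a further target organ. The files give transcript identifiers of Ensembl form without gene symbols, and 0 transcripts could be paired with a symbol, so the members are described by level, length and time course, and neither their functions nor the marker genes of liver and kidney could be examined.

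Averaged over all liver libraries, the level of the members had a median of 8.75 TPM and ran from 2.01 to 774 TPM. The median of the expressed transcripts was 10.1 TPM. This average includes the treated livers of 10 h, in which members were chosen as high. Some members reached the minimum level only through that group. In vehicle livers the members had medians of 7.36 TPM at 5 h and 4.67 TPM at 10 h. The expressed transcripts had 9.96 and 9.86 TPM there. Both vehicle groups also took part in the selection. The length of the members had a median of 2178.5 bases, with a range of 189 to 14828 bases, against 1959 bases for the expressed transcripts. Transcripts shorter than 300 bases made up 4 members (4.26%) and 1.47% of the expressed transcripts, and 2 members of equal length had identical values in each of the 64 libraries, so these count as 1 measurement.

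The differences that chose the members are given as a description. At 10 h the difference between bromobenzene and vehicle had a median of 1.03 on the log2 scale and a range of 0.80 to 3.40, while the median over the expressed transcripts was 0.06. At 5 h the median was -0.04 for the members and -0.05 for the expressed transcripts, and 57 members had a difference below 0. In 26 of the 94 members all 8 bromobenzene livers lay above all 8 vehicle livers at 10 h. The same held for 1.38% of the expressed transcripts, and nothing is read from this contrast, since it was part of the selection. At the other end, 8 members had exactly 58 pairs in favour of bromobenzene. The member nearest the 10 h limit and the transcript just outside it both had a difference of 0.80. For the other limits the nearest values inside and outside were 58 and 57 pairs, differences at 5 h of 0.20 and 0.21, and mean levels of 2.01 and 1.98 TPM.

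The same difference at 10 h came about along unlike time courses. The median member stood at 7.36 TPM in vehicle livers at 5 h and at 4.67 TPM in vehicle livers at 10 h. With bromobenzene the median was 6.98 TPM at 5 h and 12.9 TPM at 10 h. The medians of the expressed transcripts stayed between 9.62 and 10.6 TPM in the 4 groups. From 5 h to 10 h the members differed in vehicle livers by a median of -0.48 on the log2 scale and in bromobenzene livers by a median of 0.65, against 0.01 and 0.10 for the expressed transcripts. These time differences share libraries with the selection and are not tested. The limits at 5 h and 10 h also place the bromobenzene change above the vehicle change in every member.

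With a step of 0.8 on the log2 scale, taken from the selection and applied after the data were seen, the vehicle mean was lower at 10 h than at 5 h in 30 of the 94 members. That step was reached by 1.89% of the expressed transcripts. The bromobenzene mean was higher at 10 h than at 5 h by the step in 39 members, against 2.36% of the expressed transcripts. Since the selection sets the bromobenzene change above the vehicle change, contrasts with the expressed transcripts, here and below, are in part built in. Without the step, the bromobenzene mean was higher at 10 h than at 5 h in 83 members (88.3%), against 68.8% of the expressed transcripts, so the name late riser does not describe the treated livers of the other 11. Divided by both conditions, 26 members had only the lower vehicle level, 35 had only the higher bromobenzene level, 4 had both and 29 had neither. In 39 members (41.5%) the changes from 5 h to 10 h in vehicle and in bromobenzene livers had a negative sum. The same held for 37.4% of the expressed transcripts. That share can also count transcripts whose vehicle livers rose while bromobenzene livers fell by more, which the selection excludes in members. These shares are therefore not compared. The bromobenzene mean at 10 h was below the vehicle mean at 5 h in 18 members (19.1%), against 40.8% of the expressed transcripts. In 22 members all 8 vehicle livers at 5 h lay above all 8 at 10 h, a separation seen in 1.58% of the expressed transcripts. All 8 bromobenzene livers at 10 h lay above all 8 at 5 h in 12 members, against 1.65% of the expressed transcripts.

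**Figure D1:**
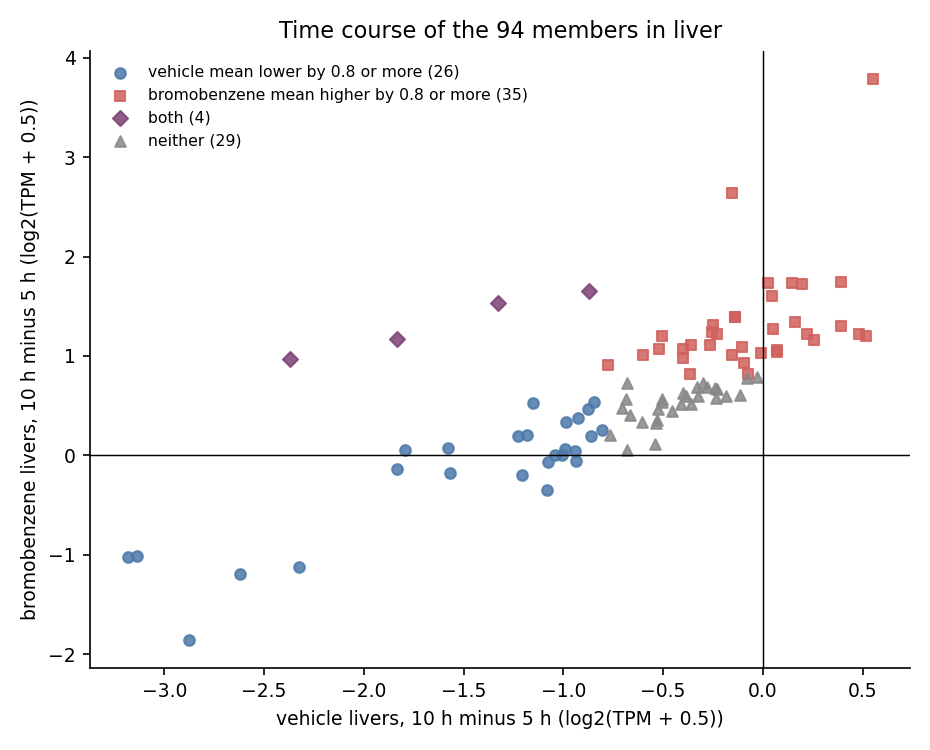
Each point is 1 of the 94 members, placed by the difference between 10 h and 5 h in vehicle livers (horizontal axis) and in bromobenzene livers (vertical axis), both as differences of mean log2(TPM + 0.5), and marked by which of the steps of 0.8 it reached. The 26 members with only a lower vehicle level extend far to the left at little or negative bromobenzene change, while the 35 with only a higher bromobenzene level lie at the top around no change in vehicle livers.

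The 26 members with only a lower vehicle level had a median level of 18.1 TPM in vehicle livers and 13.5 TPM in bromobenzene livers at 5 h. At 10 h their medians were 4.82 TPM with vehicle and 14.7 TPM with bromobenzene. The difference between 10 h and 5 h in bromobenzene livers had a median of 0.02 on the log2 scale and ran from -1.85 to 0.53, and in 5 of the 26 members it was -0.8 or lower. The member of this kind with the largest 10 h difference, 1809 bases long, had 16.2 to 77.2 TPM in vehicle livers at 5 h, with a median of 29.4 TPM, and 18.8 to 55.2 TPM with bromobenzene, with a median of 34.8 TPM. At 10 h it had 2.47 to 8.18 TPM with vehicle, with a median of 2.80 TPM, and 10.7 to 35.4 TPM with bromobenzene, with a median of 16.9 TPM. The agents overlapped at 5 h and did not at 10 h, and in both agents the 10 h livers were lower on average, by 3.14 (vehicle) and 1.01 (bromobenzene) on the log2 scale.

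The 35 members with only a higher bromobenzene level had medians of 6.45 TPM (vehicle) and 5.82 TPM (bromobenzene) at 5 h. At 10 h the medians were 4.70 TPM with vehicle and 13.6 TPM with bromobenzene. Apart from the transcript of largest difference described next, the member with the highest 10 h difference here, of 2153 bases, had a median of 0.36 TPM and a highest value of 1.11 TPM in vehicle livers at 10 h. In bromobenzene livers at 10 h it ran from 0.81 to 24.7 TPM with a median of 5.14 TPM. The lowest treated liver lay below the highest vehicle liver, and the other 7 lay above every vehicle liver.

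The 4 members that met both steps had 10 h differences with a median of 2.51 on the log2 scale. The leading one, of 627 bases, had medians of 42.5 TPM (vehicle) and 29.7 TPM (bromobenzene) at 5 h. At 10 h vehicle livers held 3.40 to 14.1 TPM, with a median of 9.21 TPM, and bromobenzene livers 30.7 to 175.2 TPM, with a median of 57.5 TPM, so the groups did not overlap. The 10 h difference equals the 5 h difference plus the bromobenzene change from 5 h to 10 h minus the vehicle change. The steps therefore fix in part how the kinds rank in the 10 h difference, and nothing is read from that ranking. The 29 members that met neither step had 10 h differences with a median of 0.88. Their median decline was 0.41 in vehicle livers, and their median gain was 0.57 in bromobenzene livers. An example of 3017 bases had a vehicle median of 13.03 TPM at 5 h and 9.11 TPM at 10 h, and bromobenzene medians of 15.5 TPM and 26.6 TPM at those times.

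The largest difference at 10 h belonged to ENSRNOT00000017181.4, a transcript of 1941 bases that was scarce in every other liver group. It had 0.31 to 0.77 TPM in vehicle livers at 5 h, 0.34 to 1.07 TPM in bromobenzene livers at 5 h and 0.51 to 1.62 TPM in vehicle livers at 10 h, where the median was 30 estimated counts. The 8 bromobenzene livers at 10 h, in the order of replicates 1 to 8, had 4.07, 18.6, 1.58, 41.6, 122, 7.22, 4.65 and 84.2 TPM. Replicate 3 lay inside the vehicle range and the other 7 above it, and the treated livers spanned a wider range than those of any other group. The mean was 35.5 ± 44.8 TPM (SD, n = 8) against 1.004 ± 0.409 TPM (SD, n = 8) with vehicle, a difference of 3.40 on the log2 scale at 10 h and of 0.16 at 5 h.

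This transcript was more abundant in kidney than in vehicle liver, with 5.04 to 7.40 TPM in vehicle kidneys at 10 h. Transcripts enriched in kidney were also more frequent in some treated livers. A list of 653 transcripts at least 16-fold higher in 5 h vehicle kidneys than in 5 h vehicle livers, with at least 5 TPM there and no member among them, took 0.145% to 0.170% of the counts in vehicle livers at 10 h. In bromobenzene livers at 10 h it took 0.190%, 0.221%, 0.186%, 0.255%, 0.472%, 0.157%, 0.163% and 0.338%, again in replicate order. The libraries with the highest 4 shares, replicates 5, 8, 4 and 2, were also those with the highest 4 levels of the transcript, in the same order. The other libraries did not follow this order. Replicate 6, with the lowest share, had 7.22 TPM, while replicates 1 and 3, with higher shares, had 4.07 and 1.58 TPM. The level in replicates 2, 4, 5 and 8 was above that of every kidney library, where the highest value was 11.7 TPM. The part of the list in the 10 h difference was not tested.

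The most abundant member in treated livers was ENSRNOT00000026355.5, of 1971 bases. At 5 h vehicle livers had 676 to 1042 TPM, with a median of 862 TPM, and bromobenzene livers 392 to 856 TPM, with a median of 589 TPM. At 10 h vehicle livers had 241 to 937 TPM, with a median of 510 TPM, and bromobenzene livers 830 to 1521 TPM, with a median of 1035 TPM. The treated livers were thus lower than vehicle on average at 5 h, by 0.61 on the log2 scale, and higher by 1.08 at 10 h, with some overlap of the groups at each time.

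**Figure D2:**
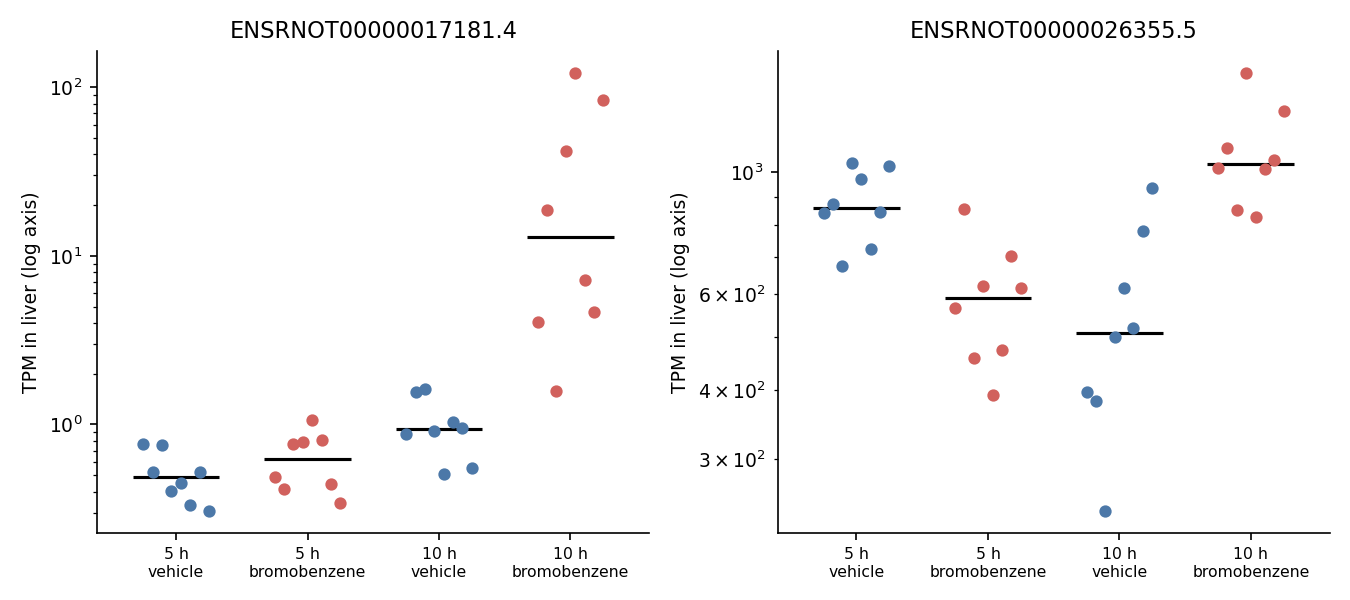
Liver TPM (log axis) of the member with the largest 10 h difference (ENSRNOT00000017181.4) and of the most abundant one (ENSRNOT00000026355.5) in the 32 liver libraries, 1 point per library with the group median as a line. In treated livers at 10 h the first runs from 1.58 to 122 TPM, with replicate 3 inside the 10 h vehicle range. The second has its lowest median, 510 TPM, in vehicle livers at 10 h.

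Across the whole set the treated livers at 10 h were uneven. Expressed as the median over the members of the log2 difference from the 10 h vehicle mean, bromobenzene replicates 1 to 8 stood at 1.21, 1.19, 0.52, 1.11, 1.30, 0.95, 0.89 and 1.48. All 8 lay above the 10 h vehicle livers, which ran from -0.16 to 0.15, as the selection on these libraries largely requires. Replicate 3 was the lowest of the treated livers in 58 of the 94 members and exceeded every vehicle library in 42 members, against 80 to 92 for the other 7 livers. Replicate 8 was the highest in 40 members. Such counts, here and for 5 h, were not taken over the expressed transcripts. They do not show whether a library stood apart in the members in particular. At 5 h vehicle livers ran from 0.34 to 0.71, and bromobenzene livers from 0.28 to 0.62 apart from replicate 4, which stood at -0.08 and was the lowest of its group in 45 members. But for that library, the 5 h livers of both agents lay above the vehicle livers of 10 h, and they lay below the treated livers of 10 h other than replicate 3. These positions rest on libraries that the selection used and were not tested. In bromobenzene livers at 10 h, depth in replicates 1 to 8 was 13789055, 21046905, 17939047, 24252231, 20758690, 27723567, 24593707 and 27748687 estimated counts. The part of depth in the positions of these livers was not tested.

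**Figure D3:**
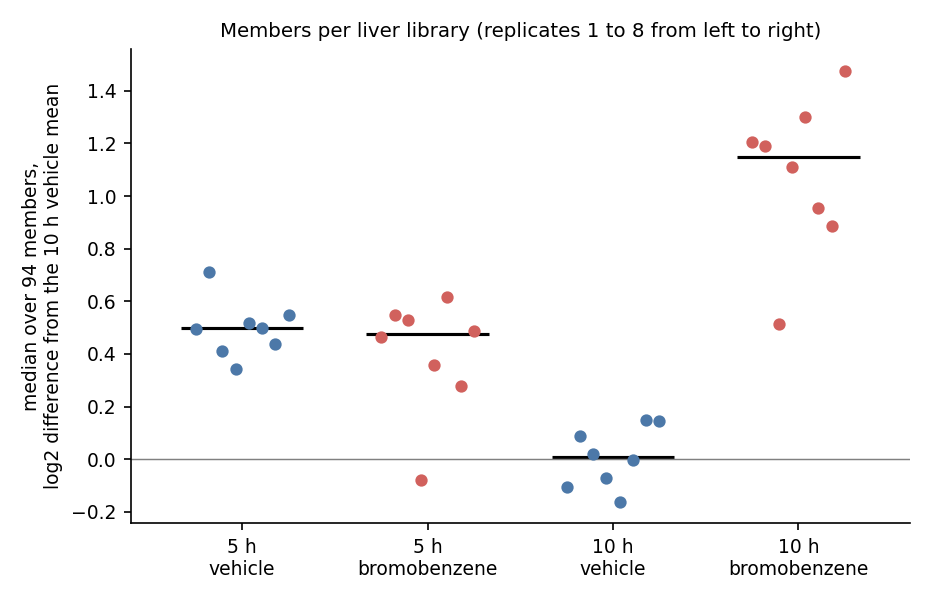
Median over the 94 members of the log2(TPM + 0.5) difference from the 10 h vehicle mean, 1 point per liver library, with the median of each group as a line. Bromobenzene replicate 3 at 10 h (0.52) and bromobenzene replicate 4 at 5 h (-0.08) are the lowest of their groups.

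Leaving out bromobenzene replicate 3 of 10 h widened the membership and lost no member. Without it the same limits, with the pair count scaled to the same share, admitted 147 transcripts, all 94 members among them. Without bromobenzene replicate 8 of 10 h the limits admitted 80, of which 76 were members, and 18 members were lost. Leaving out each of the 32 liver libraries in turn, 57 transcripts were members every time. The libraries are numbered in the labels, and numbers up to 18 hold 5 treated and 6 vehicle livers of 10 h while the later numbers hold 3 and 2. Of the 5 h livers, the first numbers hold 2 treated and 5 vehicle, and the later ones 6 and 3. The members' median difference at 10 h was 1.09 among the first and 0.97 among the later libraries, and 86 and 61 members reached 0.8. At 5 h the members' median difference was 0.06 among the first and -0.12 among the later libraries.

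Kidney libraries took no part in the selection and were therefore tested, though per the series description they come from organs of the same rats. Of the 94 members, 85 (90.4%) had a mean of at least 2 TPM in vehicle kidneys, near the 94.2% of the expressed transcripts, and 67 (71.3%) were higher in vehicle kidney than in vehicle liver at 10 h, against 76.3% of the expressed transcripts. At least 16-fold higher in liver were 3 members (3.19%), and 1 (1.06%) was at least 16-fold higher in kidney, near the 4.42% and 1.01% of the expressed transcripts. After the filter on low counts, 89 members were tested among 20004 transcripts, and the other 5 did not pass the filter. P-values measure the spread between these libraries.

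In kidney at 10 h, 2 of the 89 members rose with bromobenzene and 0 fell by the edgeR quasi-likelihood test with Benjamini-Hochberg adjustment. Over all transcripts tested 0.305% rose and 0.32% fell. At an unadjusted edgeR p under 0.05 there were 24 members (26.97%), 22 of them higher. Of all 20004 transcripts it was 2025 (10.1%), 965 of them higher. The 2 members with identical values were both among the 22. The edgeR log2 change had a median of 0.10 over the members, with a range of -0.72 to 1.20, and a median of 0.00 over all transcripts. It was above 0 in 66 members (74.2%) and in 51.4% of all transcripts. The 70 transcripts that were already higher in liver by 0.2 or more at 5 h gave 4 that rose among 65 tested and a median of 0.16.

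**Figure D4:**
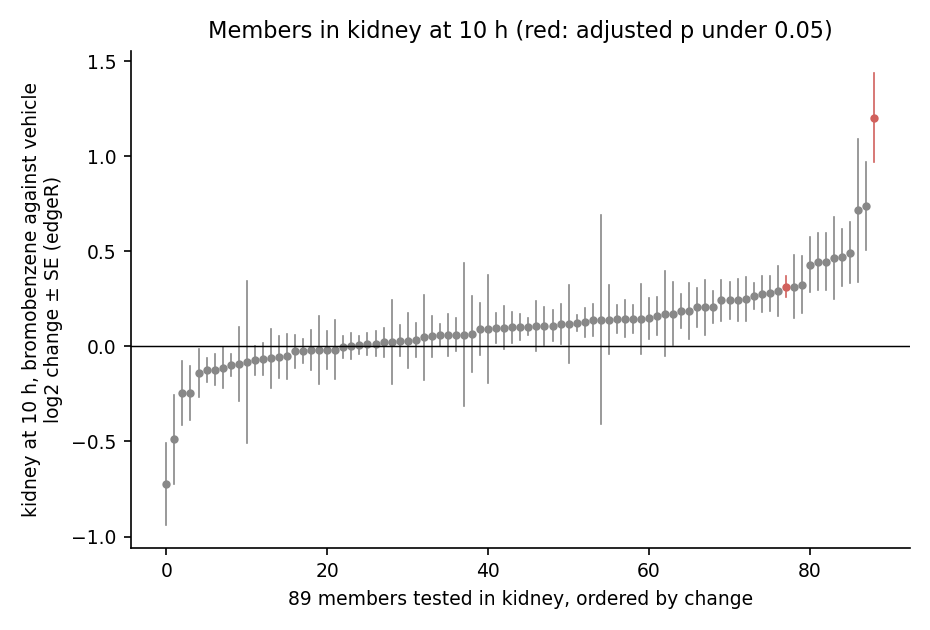
Log2 change with its standard error (edgeR) between bromobenzene and vehicle kidneys at 10 h for the 89 members tested, in order of the change, with the 2 members past an adjusted p of 0.05 in red. The changes run from -0.72 to 1.20 with a median of 0.10, and the 2 called members differ in size, at 0.31 and 1.20.

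The 2 members that rose in kidney are named after their values were seen. ENSRNOT00000010031.6, of 1888 bases, had 2.13 to 6.04 TPM in vehicle kidneys at 10 h, with a median of 3.53 TPM, and 4.14 to 13.9 TPM with bromobenzene, with a median of 6.92 TPM. The groups overlapped, with 5 of 8 treated kidneys above every vehicle kidney. The log2 change was 1.20 (SE 0.23, edgeR adjusted p = 0.00661). At 5 h its level was 6.47 to 12.8 TPM with vehicle and 5.54 to 13.6 TPM with bromobenzene. The vehicle kidneys of 10 h thus lay below all of those of 5 h, with a log2 change of -1.30 (SE 0.23, edgeR adjusted p = 0.000668), while the treated kidneys of 10 h overlapped those of 5 h.

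In liver, too, its median was lowest in the vehicle group of 10 h. Vehicle livers held 75.01 to 229.6 TPM at 5 h, with a median of 130.4 TPM, and bromobenzene livers 82.96 to 142.6 TPM, with a median of 107.6 TPM. At 10 h vehicle livers held 15.7 to 43.98 TPM, with a median of 26.1 TPM, and bromobenzene livers 33.9 to 70.3 TPM, with a median of 49.7 TPM. Both groups of 10 h lay below both groups of 5 h, and overlapped each other.

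ENSRNOT00000077555.1, of 1290 bases, had 21.7 to 24.01 TPM in vehicle kidneys at 10 h, with a median of 22.5 TPM, and 23.003 to 30.6 TPM with bromobenzene, with a median of 27.6 TPM. In 7 of 8 treated kidneys it lay above every vehicle kidney, and the vehicle range was the narrowest of the 4 kidney groups. The log2 change was 0.31 (SE 0.06, edgeR adjusted p = 0.00326). At 5 h vehicle kidneys had 25.3 to 31.9 TPM and bromobenzene kidneys 21.4 to 30.7 TPM, a log2 change of -0.19 that did not pass the test (edgeR adjusted p = 0.113). In liver the medians were 14.5 TPM (vehicle) and 10.8 TPM (bromobenzene) at 5 h, and 6.94 TPM and 15.1 TPM at 10 h. Vehicle was the lowest group at 10 h in both organs.

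**Figure D5:**
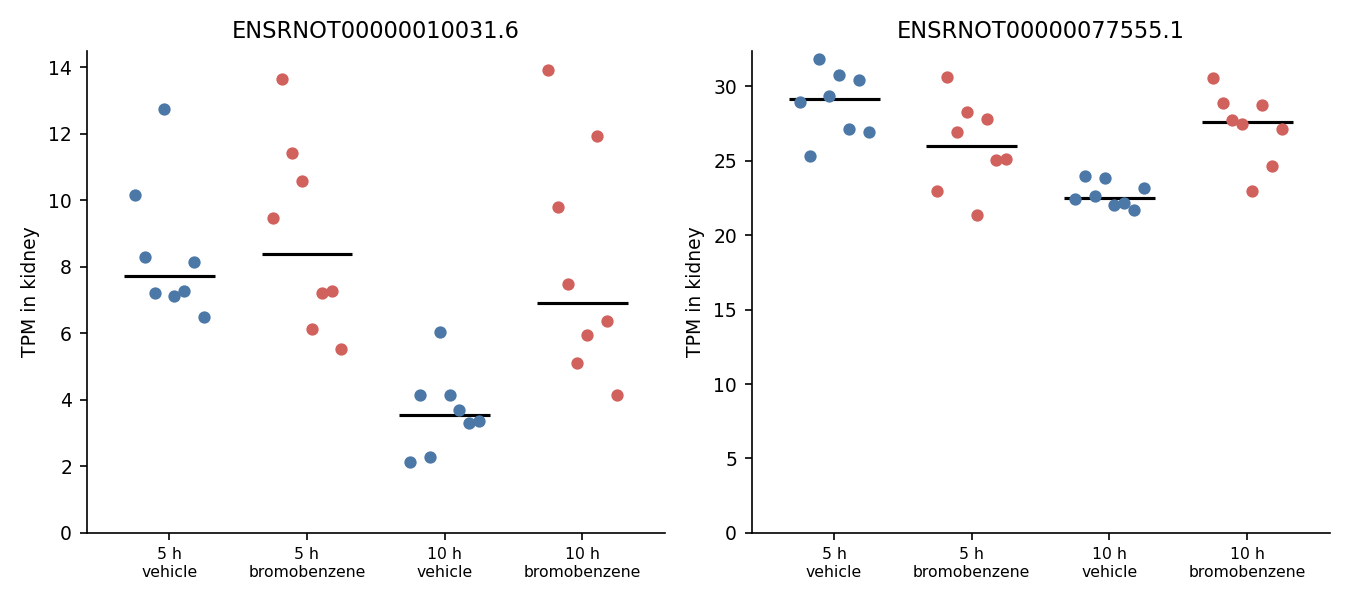
Kidney TPM of the 2 members that rose with bromobenzene at 10 h, 1 point per library with the group median as a line, on axes from 0. In both, vehicle kidneys at 10 h form the lowest group, with medians of 3.53 TPM (ENSRNOT00000010031.6) and 22.5 TPM (ENSRNOT00000077555.1).

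In kidney at 5 h, edgeR called 0 of the 89 members, against 0.375% of all transcripts in either direction. At an unadjusted edgeR p under 0.05 there were 16 members (17.98%), 7 of them higher. Of all 20004 transcripts it was 2806 (14.03%), 1360 of them higher. The median edgeR log2 change of the members was -0.00. DESeq2 called 2 members, and its share over all transcripts is not given here, so nothing is read from that count. The response at 10 h was larger than that at 5 h in 1 member by the edgeR interaction test, against 0.06% of all transcripts, and smaller in 0. That member was ENSRNOT00000077555.1, with a difference of 0.50 between the responses (SE 0.08, edgeR adjusted p = 0.00256). For ENSRNOT00000010031.6 the difference was 1.18 and did not pass (edgeR adjusted p = 0.156).

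The members with the largest difference and the highest level in liver were not called in kidney at 10 h. ENSRNOT00000017181.4 had 5.86 to 9.52 TPM with bromobenzene, beside the vehicle range given above, a log2 change of 0.31 (SE 0.17, edgeR adjusted p = 0.541). ENSRNOT00000026355.5 had medians of 2.16 TPM with vehicle and 2.90 TPM with bromobenzene, a change of 0.14 (SE 0.55, edgeR adjusted p = 0.969). At 5 h its change of -2.40 (SE 0.57, edgeR adjusted p = 0.0522) included 1 vehicle kidney, replicate 4, at 35.3 TPM, where the other 7 had at most 3.11 TPM. In that library a list of 405 liver-enriched transcripts, formed in the same way and without members, took 2.09% of the counts, against 0.246% to 0.335% in the other vehicle kidneys of 5 h. The part of the list in this value was not tested.

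Vehicle kidneys were compared between 10 h and 5 h after the liver pattern had been seen. By the edgeR quasi-likelihood test with Benjamini-Hochberg adjustment, 2 of the 89 members were higher at 10 h and 10 were lower, where 2.88% and 2.8% of all transcripts were. This split differed between fits. By edgeR on library totals alone, 4 were higher and 7 lower. By limma on log2(TPM + 1) or log2(TPM + 0.1), 7 were higher and 6 lower. No share of all transcripts is given for these other fits, and the 2.88% and 2.8% belong to the first. In the first fit the median log2 change was -0.08 over the members and -0.00 over all transcripts. Of the 25 tested members whose vehicle livers were lower by the step, 7 fell in vehicle kidneys and 0 rose, with a median change of -0.20. Among the other 64 members 3 fell and 2 rose, with a median of -0.04, and the difference between these groups of members was not tested. This comparison and that of agents at 10 h share the vehicle kidneys of 10 h, so for the 2 members named above they are not separate measurements. The labels give the hours after dosing and not the hour of the day, so the hour of the day and the time since dosing cannot be told apart.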

How the data were processed

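The tool and build named in the submitters' processing notes are kallisto 0.42.4 and Rnor_6.0; the annotation release is not given in the sources used here. The deposited files hold, per the file headers, the authors' estimated counts and TPM per transcript, 1 file for each of 64 libraries. TPM was used for the liver description, as log2(TPM + 0.5). Estimated counts were rounded to whole numbers for the kidney tests, which used edgeR 4.0.16 (R 4.3.3) with filterByExpr (minimum count 10, minimum total 15), TMM and robust quasi-likelihood fits over the 4 kidney groups, with an adjusted p threshold of 0.05 over 20004 transcripts. Alternatives used DESeq2 1.42.0, limma 3.58.1 and other pseudocounts, filters and subsets of libraries. Tested on simulated data for the 10 h kidney comparison (19726 transcripts), the fit recovered 100% of transcripts changed 2-fold and 40% of those changed 1.5-fold. The simulation used the same setting of spread between libraries for every transcript and changed only transcripts above a minimum level. These rates therefore do not carry over to members with a larger spread or a lower level.

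The members and lists were chosen with earlier results of these data known, so the liver contrasts carry no test. Members were to be named by identifier only for the largest 10 h difference and the highest mean TPM in treated livers at 10 h; the 2 called in kidney were added. The gene and marker lists drawn up were not used, since 0 transcripts were paired with a symbol. No replicate pair agreed within sampling noise (224 pairs, lowest chi-square per degree of freedom 10.3).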

Additional observations from a re-analysis of the deposited data

Results flagged for a closer look

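Of 40 groups of 8 libraries examined for the 4 named members and the member medians, 3 held a library far from the others; chance gives about 1 in 20. ENSRNOT00000017181.4 reached 11.7 TPM in bromobenzene kidney replicate 5 at 5 h, where the next library had 7.88 TPM. ENSRNOT00000026355.5 reached 35.3 TPM in vehicle kidney replicate 4 at 5 h, where the next had 3.11 TPM and where liver-enriched transcripts took 2.09% of the counts. The same transcript had 3.95 TPM in vehicle kidney replicate 1 at 10 h, where the next had 2.65 TPM. ENSRNOT00000077555.1 responded differently at the 2 times in kidney, with a response at 10 h that was 0.50 above that at 5 h on the log2 scale (edgeR interaction test, adjusted p = 0.00256).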

How the results depend on the processing

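The set held 94 members as defined and 74 to 147 over 39 alternatives. Leaving out 1 liver library gave 80 to 147, the highest without bromobenzene replicate 3 at 10 h. A pseudocount of 1 gave 77 (74 shared), 0.1 gave 105 (90 shared) and TMM-scaled CPM 74 (72 shared). Libraries numbered up to 18 gave 90 (58 shared) and the later ones 141 (51 shared). The counts of members with a lower vehicle level (27 to 31) and a higher bromobenzene level (35 to 45) stayed near their values in the 7 alternatives run.

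In kidney at 10 h, leaving out 1 library gave 2 to 3 calls, and each part of the library numbers alone gave 0; the smaller number of libraries is part of those fits. The calls of both named members were lost only there (adjusted p 0.0596 and 1 for ENSRNOT00000077555.1, 0.111 and 1 for ENSRNOT00000010031.6, by edgeR), with log2 changes of 0.30 to 0.31 and 1.20 to 1.22. The median change was 0.05 to 0.12 over 25 alternatives. In kidney at 5 h the count went from 0 to 2 with DESeq2 and to 1 without vehicle replicate 4 and bromobenzene replicate 8 together; without 1 library it was 0 to 2, and it moved without bromobenzene replicates 1, 2, 6 or 8 or vehicle replicates 5, 6 or 8. The difference between the times was called in 1 member, in 3 with DESeq2, in 2 with limma on log2(TPM + 1), limma on log2(TPM + 0.1), library numbers as a covariate, or that pair of libraries left out, and in 0 in either part of the numbers alone. Without 1 library it was 1 to 3, and it moved without 5 h bromobenzene replicates 1, 4 or 8, 5 h vehicle replicates 6 or 8, 10 h bromobenzene replicate 7 or 10 h vehicle replicate 8. For vehicle kidneys between the times, calls ran from 9 to 15 without 1 library and were 0 in the later library numbers alone, and the members' median was 0.0059 and 0.0088 with limma on log2(TPM + 1) and log2(TPM + 0.1), against -0.08 with edgeR. Shares over all transcripts are not given for the alternatives, so these counts do not show whether a fit called more transcripts in general. The causes were not tested. No paired analysis was possible because the groups compared hold different rats and the labels give no replicate number shared between them.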
